A study of Rattus norvegicus with 145 samples.

Results

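The livers of female rats given acetamide at 1000 mg/kg/day (mkd) for 7 days and killed on day 8 were compared with those of the female rats given the vehicle alone and killed on the same day. These 5 treated and 5 control rats, 10 of the 145 rats of the series, were taken by dose, sex and day from the labels, and all genes counted in them were examined. Rats of both sexes received acetamide in water by oral gavage at several doses, in separate experiments, and liver RNA was sequenced after 7 or 28 days of treatment. The rats analysed here were Crl:WI Wistar rats from Charles River, 8 to 10 weeks old, and control rats received water. RNA came from the left lobe of the liver, a day after the last dose, and was sequenced from stranded mRNA libraries. Control rats 1 to 5 and treated rats 1 to 5 below carry the replicate numbers of the labels, and each library is 1 animal.

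Acetamide is a small amide known to cause liver tumors in rats at high dietary doses. Liver growth and repair rest on hepatocytes that leave a resting state: the genes for DNA replication are transcribed in S phase, and those for the spindle, the kinetochore and the division of the cell in G2 and M phase. Both waves are driven from promoters bound by cell cycle regulators. The second wave, which holds Ccnb1, Cdk1 and Top2a, uses a CHR element (TTTGAA and relatives) together with CCAAT boxes bound by NF-Y. The normal adult liver holds few dividing cells, so that these transcripts are rare in control animals.

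Reads counted on genes numbered 22945748 to 32460604 in control rats and 15449716 to 29102614 in treated rats, and the highest correlation between any 2 of the 10 libraries was 0.9858. Levels are given as CPM, the TMM-scaled share of the reads on genes. CPM is not per gene length, so levels are compared between rats and not between genes. In shares of reads without TMM scaling, the Y-linked Eif2s3y reached at most 0.0616 CPM in these females against at least 31.7 CPM in males of the same experiment, and the female-specific Cyp2c12 lay between 3000 and 5510 CPM against at most 302 CPM in those males. Ddx3y, also listed as Y-linked, did not separate the sexes, at 6.98 to 15.3 CPM in these females and 5.43 to 11 CPM in those males. Control rat 4 and treated rat 2 had the largest shares of reads with low-quality alignments (28.3% and 31.7%), and without both libraries 139 genes were called differentially expressed by the criteria given next.

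At 1000 mkd, 118 genes rose and 40 genes fell among 11497 tested, that is 1.03% and 0.348%, or 1.37% in all, by edgeR's quasi-likelihood test. A call needed a change of 1.5-fold or more either way together with an FDR, the p adjusted after Benjamini and Hochberg, no higher than 0.05. The rises were larger than the falls. The median log2 fold change of the 118 genes was 2.18 (0.597 to 4.01), and 71 of them rose more than 4-fold. That of the 40 genes that fell was -0.83, and 11 of them fell more than 2-fold. All 5 treated rats lay above all 5 control rats in 91 of the genes that rose, and below them in 35 of those that fell. Among all genes tested, called or not, 209 (1.82%) lay wholly above and 169 (1.47%) wholly below. Of the 11497 genes, 5959 had a higher and 5538 a lower level at 1000 mkd, whatever the size of the change. Of the 118 rises, 57 belonged to the lists of mitosis, DNA replication, DNA repair, proliferation regulator and S or G2/M genes, and 61 to none of these lists. The lists do not hold every cell cycle gene, so the 61 are not a count of genes outside the cell cycle. The lists were chosen with earlier results of these data known, so such counts are a description.

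**Figure D1:**
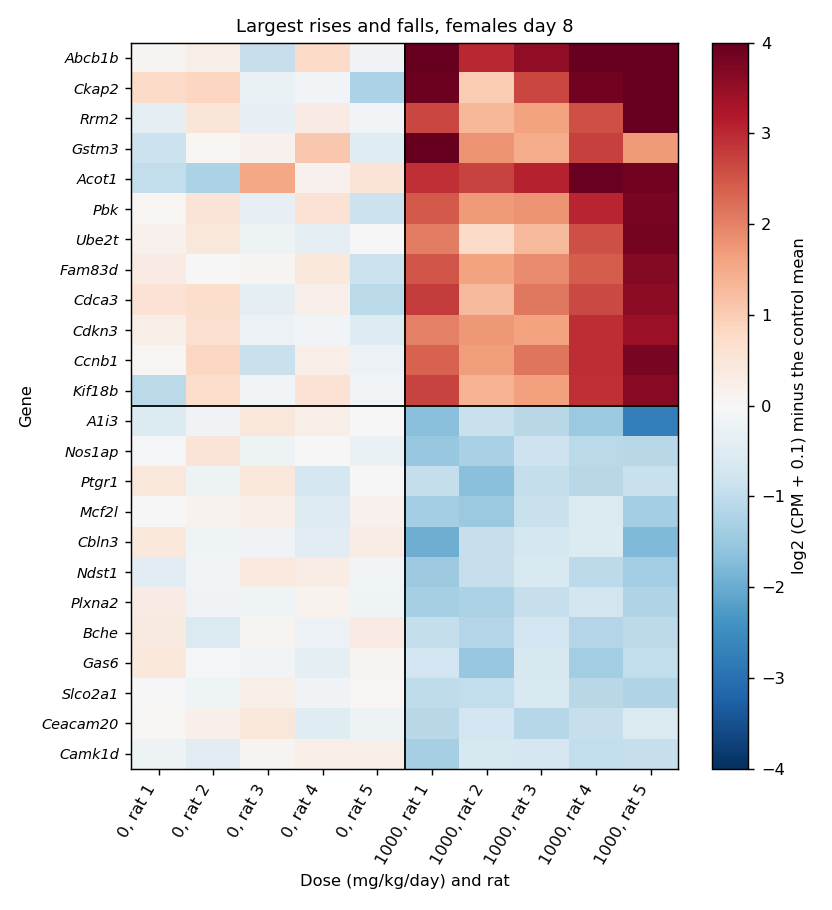
Levels of the 12 genes that rose most and the 12 that fell most (rows) in the 5 control and 5 treated female rats of day 8 (columns), as log2(CPM + 0.1) minus the control mean, with colors limited at 4 either way. Abcb1b is the largest rise (log2 fold change 4.01) and A1i3 the largest fall (-1.48), and the genes were chosen to have no overlap between the control and the treated rats.

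The number of calls depended on single rats. The FDR was at most 0.02 for 51 of the 158 genes and exceeded 0.03 for 74. Without control rat 1, 3 or 5 the number of called genes was 11, 3 and 4, and without treated rat 5 it was 2. Without treated rat 1 or 4 it was 74 each, while it was 182 without treated rat 2, 202 without treated rat 3, 114 without control rat 2 and 120 without control rat 4. In each of these 10 fits all 158 genes had an unadjusted p of at most 0.00762, and 2 genes, Abcb1b and Plxna2, were called in every fit (FDR at most 0.00279 and 0.0152). The 158 genes were chosen with all rats, and each of these fits reuses all rats but 1. Their small p values there are thus no separate test. Adjusted p values are given below for the fit with all rats, and all other genes named as having risen or fallen lost the call without at least 1 of these rats.

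**Figure D2:**
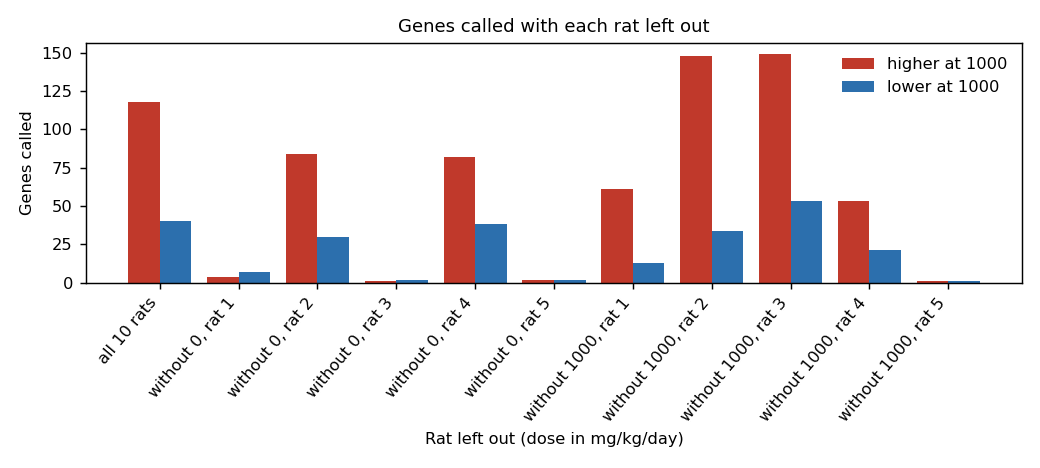
Number of genes called higher and lower at 1000 mkd than in control females of day 8 (vertical axis, genes) with all rats and with each of the 10 rats left out in turn (horizontal axis). The total is 158 with all rats and ranges from 2, without treated rat 5, to 202, without treated rat 3.

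The mitosis genes made up the largest group of rises. Of the 49 tested, 39 rose and 0 fell, where 1.03% of all genes tested rose. The median log2 fold change was 2.19 against 0.0117 for all genes tested, and all 49 were higher at an unadjusted p below 0.05. In 36 of them every treated rat lay above every control rat, as in 1.82% of all genes tested. This list, too, was chosen with earlier results of these data known. The list held cyclins and their kinase (Ccnb1, Ccna2, Cdk1), spindle motors and checkpoint kinases (Kif11, Kif18b, Ttk, Bub1), kinetochore parts (Ndc80, Nuf2) and Top2a, which untangles chromosomes. The 10 members that did not pass were Mad2l1, Melk, Plk4, Kif15, Kif20a, Kif18a, Birc5, Cenpa, Kif23 and Racgap1, with log2 fold changes from 0.83 (Cenpa) to 2.19 (Melk). The number of members that rose was 0 without treated rat 5 or without control rat 3 or 5, 1 without control rat 1, 19 and 25 without treated rat 4 and 1, and 29 to 44 without each of the other rats.

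The promoters of 4 of these genes are shown as examples that carry TTTGAA, which many but not all mitosis promoters held, and were picked for it. They are RefSeq sequences of build GRCr8, 250 bases up to the transcript start, printed 5′ to 3′ on the strand of the gene. Capitals mark TTTGAA and CCAAT on either strand (TTCAAA and ATTGG on the opposite strand). They lie at chr16:76541864-76542113 on the plus strand (Ckap2), chr20:19265043-19265292 on the plus strand (Cdk1), chr10:84473094-84473343 on the minus strand (Top2a) and chr1:199952594-199952843 on the minus strand (Mki67).
Ckap2: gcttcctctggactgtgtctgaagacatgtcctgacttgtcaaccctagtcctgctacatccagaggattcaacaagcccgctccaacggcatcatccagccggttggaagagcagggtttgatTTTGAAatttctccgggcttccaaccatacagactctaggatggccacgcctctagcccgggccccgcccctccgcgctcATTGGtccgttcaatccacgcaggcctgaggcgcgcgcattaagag
Cdk1: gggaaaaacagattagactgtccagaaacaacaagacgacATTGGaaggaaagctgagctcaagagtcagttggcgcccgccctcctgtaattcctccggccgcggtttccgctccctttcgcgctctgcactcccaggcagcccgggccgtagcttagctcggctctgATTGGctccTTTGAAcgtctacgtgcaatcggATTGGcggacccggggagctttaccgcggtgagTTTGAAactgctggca
Top2a: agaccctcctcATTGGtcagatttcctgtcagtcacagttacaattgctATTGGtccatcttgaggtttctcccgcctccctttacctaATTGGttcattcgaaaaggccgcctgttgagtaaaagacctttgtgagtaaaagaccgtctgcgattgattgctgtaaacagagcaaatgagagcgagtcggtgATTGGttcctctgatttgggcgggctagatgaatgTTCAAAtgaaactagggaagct
Mki67: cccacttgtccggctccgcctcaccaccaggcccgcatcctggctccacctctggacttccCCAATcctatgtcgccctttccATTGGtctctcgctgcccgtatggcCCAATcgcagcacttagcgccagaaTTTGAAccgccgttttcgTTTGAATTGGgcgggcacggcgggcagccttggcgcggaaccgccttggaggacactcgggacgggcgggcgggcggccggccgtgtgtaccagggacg

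TTTGAA stood 120 bases before the start in Ckap2, 66 and 10 bases before it in Cdk1, 16 in Top2a, and 111 and 93 in Mki67. In Mki67 the nearer TTTGAA shares bases with an inverted CCAAT. Over the window from 250 bases before to 50 bases after the start, TTTGAA was found on either strand in 30 (69.8%) of the 43 mitosis promoters that could be matched to the RefSeq table, CCAAT in 69.8%, and both in 53.5%. Ccnb1 and Bub1 held no TTTGAA in this window. Among the 99 matched promoters of all 118 genes that rose, the shares were 40.4%, 65.7% and 30.3%. Among the 30 matched promoters of the 40 genes that fell, they were 10%, 36.7% and 0%. Of 9290 matched promoters of all genes tested, 11.9% held TTTGAA, 37.9% held CCAAT and 5.04% held both. These are matches of letters, given as a description, and binding was not measured.

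Ckap2, a spindle-associated protein, stood at 0.619, 0.674, 0.255, 0.289 and 0.0776 CPM in control rats 1 to 5 and at 6.34, 0.751, 2.59, 6.04 and 9.93 CPM in treated rats 1 to 5. The groups did not overlap, but treated rat 2 lay just above the highest control rat. The log2 fold change was 3.71 ± 0.71 (SE, n = 5 per group, FDR = 0.0177). Ccnb1, the cyclin of mitotic entry, was at 1.16, 2.05, 0.552, 1.35 and 0.932 CPM in control rats and at 6.16, 3.76, 5.31, 9.29 and 16.7 CPM in treated rats, with no overlap (2.76 ± 0.55, FDR = 0.0177). Its kinase Cdk1 was at 0.851, 1.61, 0.467, 1.35 and 0.893 CPM in control rats and at 6.58, 2.25, 4.52, 7.6 and 13.4 CPM in treated rats (2.73 ± 0.60, FDR = 0.0195). For both genes treated rat 5 was highest and treated rat 2 lowest of the treated animals. Top2a ran from 1.01 to 4.62 CPM in control rats and from 9.05 to 28.4 CPM in treated rats (2.60 ± 0.54, FDR = 0.0189). Cdk1 and Top2a were picked for display after their values were seen.

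Mki67, the gene of the proliferation marker Ki-67, measured 3.4, 7.9, 3.57, 9.34 and 5.01 CPM in control rats 1 to 5. In treated rats 1 to 5 it measured 22.1, 14.3, 13.3, 24.6 and 44.9 CPM. Each treated rat was above each control rat, and treated rat 5 stood furthest from the controls (log2 fold change 2.03 ± 0.49, FDR = 0.0314). The other rises in the list ran from Aurka (0.97), the spindle pole kinase, to Nek2 (2.76), a centrosome kinase of the same phase.

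DNA replication genes moved by less. Of the 40 tested, 8 rose, 0 fell and 39 were higher, with a median log2 fold change of 0.83. Over all genes tested, 1.03% rose. The 8 were the ribonucleotide reductase subunit Rrm2, 3 subunits of the MCM helicase (Mcm3, Mcm5 and Mcm6), Cdc45 and Gins1, which complete that helicase, the origin recognition subunit Orc6, and Pole2 of DNA polymerase epsilon. Rrm2, which limits the supply of deoxynucleotides, was at 0.0773 to 0.225 CPM in control rats and at 1.37, 0.478, 0.61, 1.3 and 4.65 CPM in treated rats 1 to 5 (3.56 ± 0.71, FDR = 0.0177). Mcm3 was at 2.09, 2.57, 2.25, 2.46 and 1.48 CPM in control rats and at 9.88, 3.83, 3.99, 13.2 and 14.4 CPM in treated rats (2.07 ± 0.45, FDR = 0.0195). The groups of both genes were apart, and treated rats 1, 4 and 5 were well above treated rats 2 and 3. Mcm6 showed the same split with an overlap between the groups, at 2.5 to 4.17 CPM in control rats and 16.6, 3.48, 6.32, 22.3 and 19.3 CPM in treated rats (2.04 ± 0.50, FDR = 0.0332). The count of 8 became 0 without treated rat 5 or without control rat 1, 3 or 5, it was 1 and 2 without treated rat 4 and 1, 3 and 4 without control rat 4 and 2, and 11 and 12 without treated rat 3 and 2.

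Of 18 DNA repair genes, 4 rose and 0 fell, with a median of 1.11, where 1.03% of all genes tested rose. They were Fancd2 and Fancb of the Fanconi anemia pathway, which repairs crosslinked DNA, Parpbp, which restrains recombination, and Clspn, the claspin of the replication checkpoint. Fancd2 was at 0.657, 1.12, 1.02, 1.35 and 1.05 CPM in control rats and at 3.4, 2.39, 2.15, 4.03 and 6.41 CPM in treated rats, with no overlap (1.83 ± 0.39, FDR = 0.0195). Clspn had 8 counts over all control rats and 61 over the treated rats, a ratio of 7.4 with a counting interval of 3.53 to 17.9 (95%). This interval leaves out the spread between rats. Treated rats 1 to 5 had 10, 4, 8, 17 and 22 counts and control rats at most 3 (log2 fold change 2.77, FDR = 0.0382). The 4 calls became 0 without treated rat 5 or without control rat 1 or 3, 1 without control rat 5 and 2 without treated rat 4, and 6 without treated rat 3.

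Among 25 regulators of proliferation, 3 rose, the transcription factors E2f1, Mybl1 and Mybl2, and 0 fell, with a median of 0.322. Over all genes tested, 1.03% rose. E2f1 starts S phase, and it was at 0.867 to 1.78 CPM in control rats and at 5.11, 1.84, 2.33, 4.61 and 4.58 CPM in treated rats (1.66 ± 0.41, FDR = 0.0354). Mybl2, which acts on the G2/M promoters, was at 1.16, 0.642, 0.382, 1.11 and 0.97 CPM in control rats and at 7.5, 1.98, 2.01, 3.93 and 9.75 CPM in treated rats (2.57 ± 0.66, FDR = 0.0412). Treated rats 2 and 3 were again the lowest of their group. These 3 calls were 3 without treated rat 2 or 3, 1 without control rat 4 and 0 without each of the other rats. Tuba1b and Tubb5, 2 of 11 tubulin genes, rose by 0.89 ± 0.18 and 1.03 ± 0.27 on the log2 scale (FDR = 0.0177 and 0.0421). Tubulin genes have near-identical copies among which reads may be split. The count of 2 became 0 without treated rat 5 or without control rat 1, 3 or 5, 1 without treated rat 1 or 4 or control rat 2 or 4, and 4 without treated rat 2.

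The size of the response differed among the treated rats and did so in parallel for the cell cycle lists. The mean log2 CPM of the mitosis list was -0.295, 0.482, -0.532, 0.301 and -0.427 in control rats 1 to 5 and 1.74, 1.03, 1.24, 2.2 and 2.89 in treated rats 1 to 5. The lowest treated rat, rat 2, was above the highest control rat, also rat 2. Treated rat 2 was also the library of fewest reads (15449716) and most low-quality alignments (31.7%), and the part of this in its level was not tested. For DNA replication the control rats had 1.22 to 1.62 and the treated rats 2.22, 1.7, 1.65, 2.76 and 2.84, so that treated rats 2 and 3 lay close to the controls. For DNA repair the values were 0.0879 to 0.64 and 1.24, 0.731, 0.918, 1.76 and 1.99. In all 3 lists treated rat 5 was highest.

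**Figure D3:**
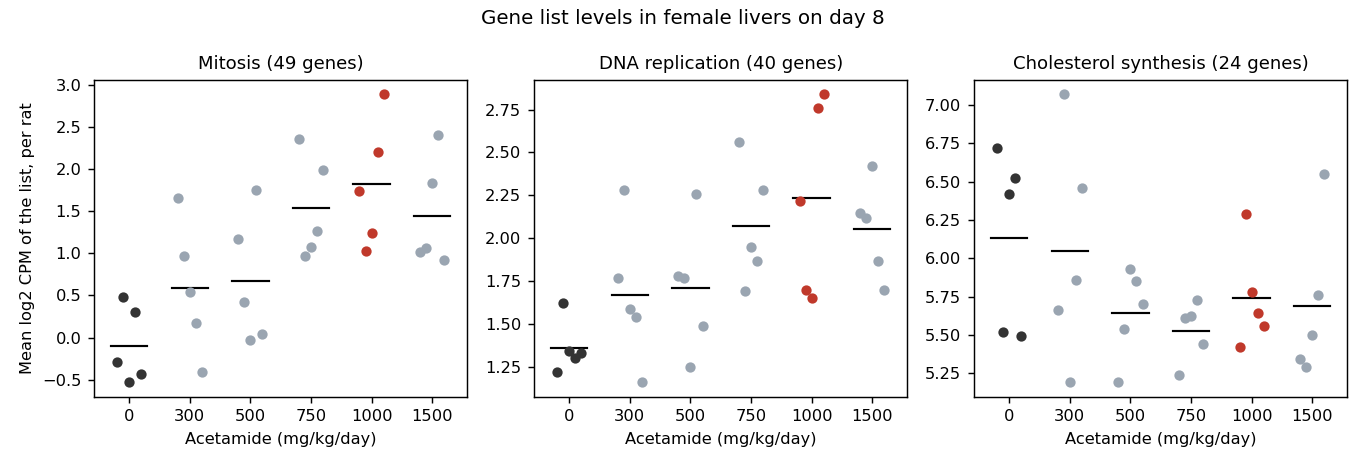
Mean log2 CPM (vertical axis) of the genes of the mitosis, DNA replication and cholesterol synthesis lists in each female rat of day 8, by dose in mkd (horizontal axis), with a bar at the mean of each group. The mitosis list spans -0.532 to 0.482 in control rats and 1.03 to 2.89 at 1000 mkd, and the cholesterol list overlaps at 5.49 to 6.72 and 5.42 to 6.29.

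Markers of liver cell types were looked at beside these lists, and 0 of them were called. In whole liver, more cells of a type and more RNA per cell cannot be told apart. All 6 endothelial markers tested were higher, 0 of them past the criteria, and their summed level was 149 to 205 CPM in control rats and 191 to 320 CPM in treated rats, with an overlap. All 10 T and NK cell markers were higher, 0 past the criteria, at 41.4 to 74 CPM summed over the list against 58 to 93.3 CPM. Of 12 Kupffer cell markers 11 were higher, at 1200 to 2090 CPM against 1440 to 2590 CPM, and of 12 hepatocyte markers 10 were lower, with a median log2 fold change of -0.19 and sums of 243000 to 323000 CPM against 178000 to 254000 CPM, again with 0 past the criteria. No defining marker of these 4 cell types was at 0 in all of these rats. The lists of further cell types did not share a direction. Of the markers tested, 4 of 9 stellate, 2 of 4 neutrophil and 1 of 4 erythroid genes were higher. So were 4 of 5 cholangiocyte genes and all 3 B cell genes. The part of any of these cells in the rise of the cell cycle genes was not tested.

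Outside the cell cycle, the largest rise was that of Abcb1b, which encodes a P-glycoprotein, an efflux pump of the hepatocyte membrane. It stood at 3.63, 3.98, 1.74, 5.78 and 3.03 CPM in control rats 1 to 5. It stood at 87.3, 28, 40.8, 69.3 and 66.8 CPM in treated rats 1 to 5. The lowest treated rat was well above the highest control rat, and the fold change was 16.1 (log2 4.01 ± 0.52, FDR = 0.000234, the smallest of all genes). Its near copy Abcb1a, picked after its value was seen, had a log2 fold change of -0.29 (FDR = 0.458), and reads of such close copies can be split between them by the counting. Of the 14 efflux transporters tested, 1 rose, where 1.03% of all genes tested did, and the median of the list was -0.13.

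The promoter of Abcb1b is printed because this gene had the largest rise and was called in every fit. It lies at chr4:26280030-26280279 on the minus strand of GRCr8, with the same window and capitals as above.
Abcb1b: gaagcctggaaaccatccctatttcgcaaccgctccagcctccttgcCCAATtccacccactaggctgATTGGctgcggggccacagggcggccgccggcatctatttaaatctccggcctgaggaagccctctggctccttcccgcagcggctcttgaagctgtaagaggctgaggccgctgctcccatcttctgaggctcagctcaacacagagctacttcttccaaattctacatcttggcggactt

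It held CCAAT at 198 bases and, inverted, at 177 bases before the start, and no TTTGAA. Of the other genes that rose, Acot1, a cytosolic acyl-CoA thioesterase and a target of PPARα, was at 2.01, 1.67, 12.1, 4.62 and 6.09 CPM in control rats and at 31.7, 27.3, 35.8, 64.5 and 61.6 CPM in treated rats (3.07 ± 0.71, FDR = 0.0271). Control rat 3 was the highest control and still below every treated rat. The other 34 PPARα targets tested did not pass, where 1.37% of all genes tested passed, and the median of the list was 0.21. The related Acot2, picked after its value was seen, had 0.81 (FDR = 0.256). Acot1 and Acot2 are close in sequence.

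Hspb1, the small heat shock protein HSP27, was at 5.68, 6, 14, 5.06 and 13.5 CPM in control rats and at 53.1, 23.3, 25.7, 34.1 and 65.7 CPM in treated rats (2.19 ± 0.50, FDR = 0.0256). It was the single heat shock gene of 22 to pass, where 1.37% of all genes tested passed, and the median of that list was -0.12. Mmp12, the elastase of macrophages, was at 0.232, 0.546, 0.467, 0.385 and 0.349 CPM in control rats and at 2.35, 2.25, 0.862, 1.2 and 2.27 CPM in treated rats, without overlap (2.15 ± 0.42, FDR = 0.0177). Siglec5, a lectin of myeloid cells picked after its value was seen, was at 2.59 to 3.95 CPM in control rats and 4.73, 9.15, 4.06, 17.4 and 6.2 CPM in treated rats (1.30 ± 0.32, FDR = 0.0332). Treated rat 4 was highest for Siglec5 and treated rat 1 for Mmp12. Beside these macrophage-expressed genes stand the Kupffer marker sums given above, whose groups overlapped.

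Gstm3, a glutathione S-transferase, was at 0.155, 0.385, 0.425, 0.867 and 0.233 CPM in control rats and at 10.8, 1.5, 1.18, 2.96 and 1.41 CPM in treated rats (3.14 ± 0.79, FDR = 0.0372). Treated rat 1 was far above the rest of its group, and family members of near-identical sequence may share its reads. It was the 1 gene of 24 NRF2 targets to pass, the median of these was -0.12, and Nqo1, a classic member, had a log2 fold change of -0.37 (FDR = 0.566). Phlda3, a p53 target that restrains Akt, was at 4.93 to 16.2 CPM in control rats and 39.6, 9.08, 12.9, 37.3 and 44.4 CPM in treated rats (1.39 ± 0.37, FDR = 0.0497). Treated rats 2 and 3 lay within the control range. It was the 1 of 20 p53 targets to pass, where 1.37% of all genes tested passed. Of these 20 targets 17 were higher, with a median log2 fold change of 0.39. An unadjusted p below 0.05 was found for 7 of them, against 13.5% of all genes tested. Cdkn1a, the p21 inhibitor of the cell cycle picked after its value was seen, had 1.26 (FDR = 0.38).

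Adgrg2, an adhesion receptor, had 8 counts over all control rats and 125 over the treated rats, a ratio of 15.2 with a counting interval of 7.47 to 35.9 (95%). That interval leaves out the spread between rats. Treated rats 1 to 5 had 24, 6, 7, 39 and 49 counts and control rats at most 3 (log2 fold change 3.78, FDR = 0.0332). Prr15, Cyp26b1 and Ugt1a2 were named after their values were seen. Cyp26b1, which breaks down retinoic acid, was at 0.116 to 0.433 CPM in control rats and 0.911, 0.546, 1.87, 0.39 and 0.655 CPM in treated rats (2.06 ± 0.49, FDR = 0.0299), with treated rat 4 within the control range. Prr15 was at 0.464 to 2.51 CPM in control rats and at 3.5, 10.9, 12.2, 3.96 and 4.86 CPM in treated rats (2.41 ± 0.54, FDR = 0.0242). For Prr15 and Cyp26b1 treated rat 3 was highest, the rat that was among the lowest for replication genes. Ugt1a2, a glucuronosyltransferase that shares exons with its neighbours, was at 1.04 to 1.71 CPM against 2.87 to 4.24 CPM (1.25 ± 0.28, FDR = 0.0249).

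Among the genes that fell, Plxna2, a semaphorin receptor, was the firmest. It was at 146, 105, 102, 126 and 103 CPM in control rats 1 to 5 and at 45.6, 48.2, 61.3, 68.6 and 50.1 CPM in treated rats 1 to 5. The groups were far apart, and the log2 fold change was -1.09 ± 0.16 (FDR = 0.00154). The largest fall was that of A1i3, a plasma proteinase inhibitor of the rat, with 2940, 3960, 5920, 5120 and 4310 CPM in control rats and 1350, 2360, 2020, 1560 and 655 CPM in treated rats (-1.48 ± 0.38, FDR = 0.0421). A1i3 belongs to a family of close copies. Treated rat 5, the highest for mitosis genes, was the lowest for A1i3.

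Genes of secreted proteins among those that fell included Itih4, Igfbp4, Gas6, Fn1 and Hgfac, and falls were not tested for such a theme. Itih4, an inter-alpha-trypsin inhibitor heavy chain, was at 11600, 9330, 10200, 10300 and 9020 CPM in control rats and 6360, 5640, 7020, 5360 and 4060 CPM in treated rats (-0.83 ± 0.22, FDR = 0.0486). Igfbp4, a binding protein of insulin-like growth factors, was at 2690, 2240, 2410, 1990 and 1870 CPM in control rats and 1610, 1330, 1740, 1530 and 1220 CPM in treated rats (-0.59 ± 0.15, FDR = 0.0388). Both genes were lower in every treated rat than in any control rat. Gas6, the ligand of the Axl and Mertk receptors, was at 321 to 544 CPM against 143 to 262 CPM (-1.05 ± 0.25, FDR = 0.0326). Fn1, fibronectin, overlapped, at 2220 to 3550 CPM against 1300 to 2290 CPM (-0.75 ± 0.18, FDR = 0.0332), where treated rat 3 exceeded control rat 5. Hgfac, the activator of hepatocyte growth factor named after its values were seen, was at 423 to 674 CPM against 293 to 387 CPM (-0.63 ± 0.15, FDR = 0.0327).

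The genes that fell also included Lrp1, Slco2a1, Slc38a3, Stat3 and Sardh, and the further solute carriers Slc19a2, Slc20a2 and Slc23a1. The list of 9 uptake transporters, which did not hold any of these carriers, had 0 calls. Lrp1, an endocytic receptor for lipoprotein remnants, was at 1430 to 1890 CPM in control rats and 777 to 1180 CPM in treated rats (-0.83 ± 0.18, FDR = 0.0214), and Slco2a1, a prostaglandin carrier, was at 351 to 464 CPM against 171 to 261 CPM (-0.98 ± 0.21, FDR = 0.0198). Slc38a3, a glutamine carrier, was at 1550 to 2200 CPM against 1050 to 1290 CPM (-0.60 ± 0.14, FDR = 0.0299). None of these 3 genes overlapped between the groups. The transcription factor Stat3 overlapped in 1 treated rat, at 191 to 320 CPM against 142 to 203 CPM (-0.66 ± 0.13, FDR = 0.0177). Sardh, which breaks down sarcosine, was at 112 to 229 CPM against 68.4 to 103 CPM (-0.78 ± 0.20, FDR = 0.0421). Lrp1, Slc38a3, Stat3, Slc19a2, Slc20a2 and Slc23a1 were named after their values were seen.

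The pathway lists of hepatocyte metabolism held 0 or 1 calls each. Over all genes tested 1.37% were called and 0.348% fell. A fall of 1 gene in lists of this size exceeds both shares. Of 46 genes of amino acid breakdown, 1 fell (Sardh) and 37 were lower, with a median log2 fold change of -0.28. Of 23 acute phase genes, 1 fell (Itih4) and 18 were lower (-0.28), and of 24 growth hormone and IGF genes, 1 fell (Igfbp4) and 17 were lower (-0.32). Cholesterol synthesis had 0 calls in 24 genes, all 24 lower, with a median of -0.38, and fatty acid synthesis had 0 in 24, 19 of them lower (-0.40). An unadjusted p below 0.05 was found for 12 amino acid breakdown, 8 acute phase and 5 growth hormone and IGF genes. It was found for 4 of the cholesterol genes and 8 of the fatty acid genes. The share of all genes tested with such a p was 13.5%. Thrsp, a lipogenic regulator, went from 666 to 1700 CPM in control rats to 112 to 622 CPM in treated rats without passing the test (-1.84, FDR = 0.186). The serine and ATF4 list had 0 calls in 23 genes and a median of 0.39, and Phgdh, the first enzyme of serine synthesis, had 2.49 (FDR = 0.0779). The interferon (39), antigen presentation (15), chemokine (20) and clock (15) lists also had 0 calls. Ifit1, an interferon-stimulated gene, reached 58.7 CPM in 1 control rat and 61 CPM in 1 treated rat, and its log2 fold change was 0.00.

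Drug-metabolism genes that mark activation of the Ah receptor or of CAR did not pass the test. The log2 fold change was 0.42 for Cyp1a1 and -0.13 for Cyp1a2 (Ah receptor), and 0.34 for Cyp2b1 and -0.49 for Cyp2b2 (CAR). The CAR and PXR list had 0 calls in 13 genes, with a median of -0.14, where 1.37% of all genes tested were called. Antioxidant genes measured -0.11 (Sod1), -0.15 (Sod2) and -0.22 (Gpx1), and 0.19 for Gstp1, the placental glutathione S-transferase that marks preneoplastic foci.

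The 1000 mkd rats were set beside the other doses of the same day, which share the control rats, so that the values are given side by side. Over the 118 genes that rose at 1000 mkd, the median log2 fold changes were 0.886, 0.986, 1.73 and 1.69 for the 300, 500, 750 and 1500 mkd groups, in that order. Over the 40 that fell they were -0.36, -0.62, -0.72 and -0.65. These genes were chosen at 1000 mkd, so a smaller median elsewhere is no test. Compared directly, 0 genes were called between 1500 and 1000 mkd (335 at an unadjusted p below 0.05, 0 by DESeq2) and 0 between 1000 and 750 mkd (182, and 1 by DESeq2). Abcb1b averaged 3.63 ± 1.47, 27.7 ± 14.9, 34.1 ± 24.6, 44.8 ± 17.2, 58.4 ± 23.7 and 47.5 ± 18.8 CPM (SD, n = 5) at 0, 300, 500, 750, 1000 and 1500 mkd, and it passed at every dose, with an FDR of 0.0306 at 300 mkd. The neighbouring doses overlapped among the treated groups. Plxna2 averaged 116 CPM in control rats and 79.6, 62.5, 59, 54.8 and 69.1 CPM at the rising doses, and passed from 500 mkd on. Mki67 averaged 5.84 CPM in control rats and 9.83, 10.7, 19.9, 23.8 and 24.2 CPM, with FDR = 0.086 at 750 mkd and 0.0423 at 1500 mkd.

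**Figure D4:**
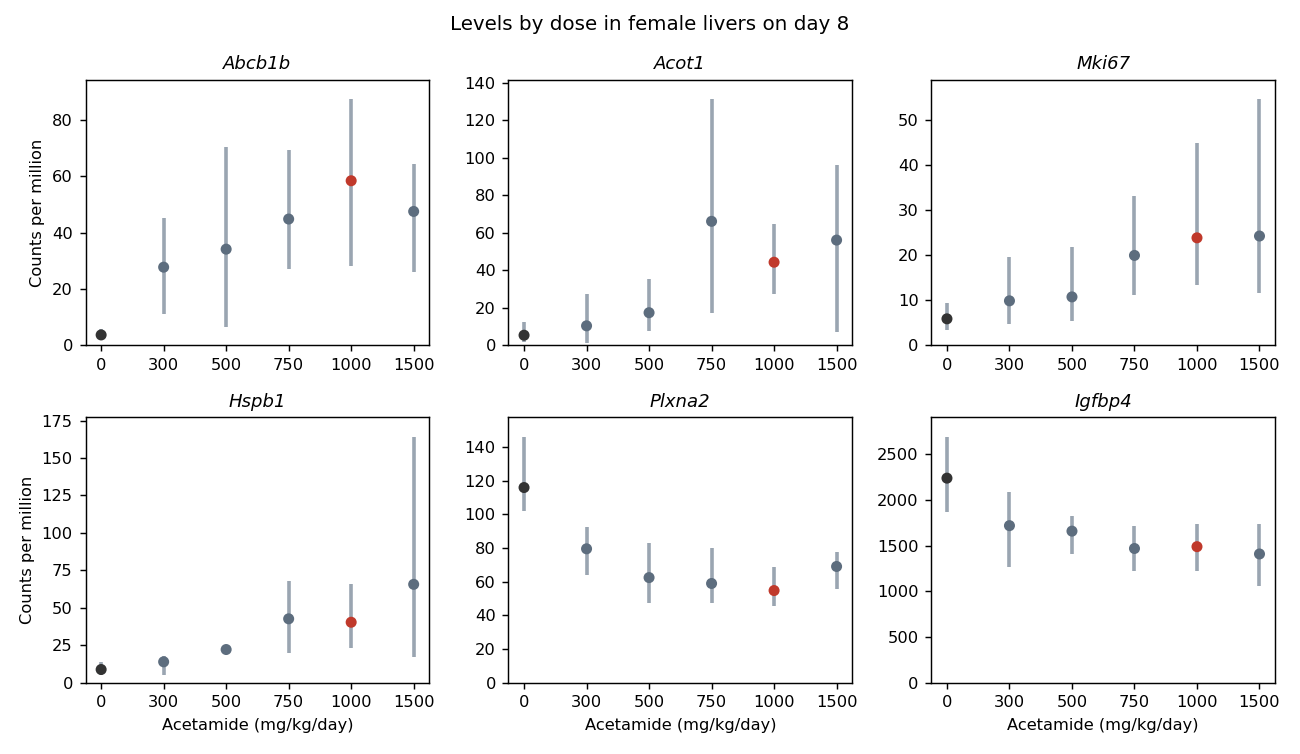
Mean level in CPM (points) and the lowest and highest rat (lines) of Abcb1b, Acot1, Mki67, Hspb1, Plxna2 and Igfbp4 in female rats of day 8 by dose in mkd (n = 5 per dose). Abcb1b rises from 3.63 CPM to 58.4 CPM at 1000 mkd and Plxna2 falls from 116 to 54.8 CPM, and the groups at 750, 1000 and 1500 mkd overlap for all 6 genes.

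Females treated for 28 days and males treated for 7 days had their own controls. In females of day 29, 141 genes rose at 1000 mkd (1.23%) and 41 fell (0.358%). Of the 118 genes that rose on day 8, 46 also rose on day 29, which is 39% of the day 8 genes and 32.9% of the 140 day 29 genes tested at both times. The shared genes included Abcb1b, Ccnb1, Cdk1, Mki67, Mcm3, Mcm5, Mcm6 and Mybl2. Of the 40 genes that fell on day 8, 0 were called on day 29, where 0.358% of all genes tested fell. All 40 were lower on day 29, with a median of -0.42. Of them, 13 had an unadjusted p below 0.05 in that direction, as did 9.02% of all genes compared. The difference of the response between day 29 and day 8 was called for 0 of 11657 genes (698 at an unadjusted p below 0.05, 0 by DESeq2). Abcb1b was at 6.34 ± 3.2 CPM in control and 64.4 ± 31.4 CPM in treated females of day 29 (SD, n = 5, FDR = 0.00757).

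In males of day 8, 0 of 11304 genes were called at 1000 mkd (531 at an unadjusted p below 0.05). For the 118 genes that rose in females the male median was 0.933, 115 were higher, and 78 of them had an unadjusted p below 0.05 in that direction, as did 3.16% of all genes compared. For the 40 genes that fell in females the male median was -0.21, 33 were lower, and 6 had an unadjusted p below 0.05 in that direction, as did 1.53% of all genes compared. Abcb1b was at 3.41 ± 3.02 CPM in control and 14.7 ± 13.2 CPM in treated males, from 1.85 to 36.6 CPM in the latter, which overlapped the controls. The difference of the response between females and males was called for 0 of 11631 genes (584 at an unadjusted p below 0.05, 0 by DESeq2, smallest FDR 0.53). Of the 118 and the 40 genes, which were chosen in females, 51 and 28 had an unadjusted p below 0.05 for that difference. A difference between the sexes was thus not detectable for any single gene with 5 rats a group.

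**Figure D5:**
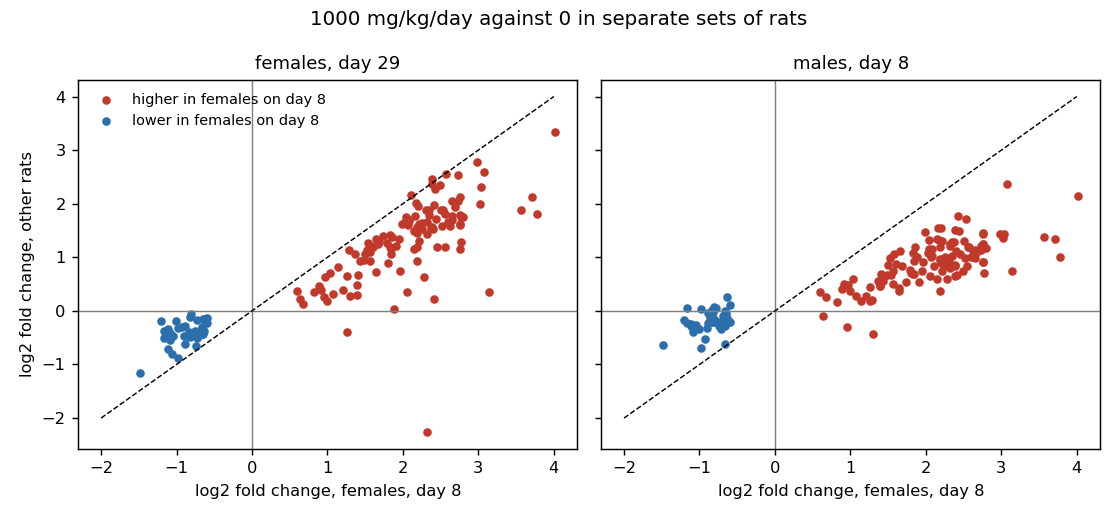
Log2 fold change at 1000 mkd of the 158 genes called in females of day 8 (horizontal axis) against that in females of day 29 and in males of day 8 (vertical axes), each against its own 5 control rats. The dashed line marks equal values, and the median of the 118 genes that rose is 2.18 in females of day 8, 1.42 in females of day 29 and 0.933 in males.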

How the data were processed

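Liver mRNA of 30 female rats of day 8 (5 per dose) was fitted, with day 29 females and day 8 males for comparison. The authors trimmed the reads with Trimmomatic, aligned them to the rat genome Rn6 with Bowtie2 and deposited the raw HTSeq counts of 17337 genes, without normalization. Lines of unassigned reads (36.7 to 53.9% of the counts of the 10 rats) were left out. Counts were tested with edgeR 4.0.16 (R 4.3.3, TMM, its low-count filter, quasi-likelihood F-test, 6 dose groups in a single fit), and responses were compared between data sets as interactions, on both tables together. The SE is the log2 fold change divided by the square root of F. List levels use log2 CPM with a prior count of 2. Counting intervals cover counting error only. The scripts were tested on simulated data. Alternatives were DESeq2 1.42.0, its size factors, other count filters, a replicate block, the 10 rats alone and leaving out each rat. The genes named are the 12 largest changes each way among called genes with at least 1 CPM and no overlap, genes fixed by role, and others marked as picked later. The comparison and the gene lists were chosen with earlier results of these data known. Promoters were matched by symbol.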

Additional observations from a re-analysis of the deposited data

Results flagged for a closer look

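Of 126 sets of 5 rats examined, 6 (4.76%) held a rat far from the others of its group by Dixon's criterion, which chance gives in about 1 in 20 groups, and 3 of the 6 concerned treated rat 5. Fam83d, a spindle gene, stood at 4.03 CPM in treated rat 5 against 0.888 to 1.75 CPM in the other treated rats, and Rrm2 at 4.65 CPM against 0.478 to 1.37 CPM. The mean log2 CPM of the amino acid breakdown genes was 7.45 in treated rat 5 against 7.93 to 8.12 in the others. Gstm3 was at 10.8 CPM in treated rat 1 against 1.18 to 2.96 CPM. Nos1ap, a gene that fell, was at 8.64 CPM in control rat 2 against 5.01 to 5.87 CPM. The mean log2 CPM of the NRF2 targets was 5.52 in control rat 5 against 5.25 to 5.28 in the other control rats.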

How the results depend on the processing

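The count of 158 genes became 259 with DESeq2 (179 higher, 80 lower, with 157 of the 158 among them) and 82 with at least 10 counts in every rat (9992 genes tested, 100 of the 158 among those tested), and ranged from 2 to 202 without each rat in turn. It was 158 with DESeq2's size factors, 142 without a filter and 125 with the 10 rats alone. The replicate block gave 114 genes (82 higher, 32 lower, 109 of the 158 kept). Replicate numbers share no animal, deviations of same-numbered rats correlated at -0.338 to -0.00183, and 0 of 5 rats matched their own number best. Between 1000 and 750 mkd the count of 0 became 1 with DESeq2 and ranged from 0 to 1 without each rat (1 without rat 4 of 750 mkd). The difference between day 29 and day 8 ranged from 0 to 1 (1 without control rat 2, 3 or 4 of day 29). Of the 60 called genes fixed for naming or named, 0 changed direction under any of these alternatives. The sign of the log2 fold change turned in 7 genes that had not passed. Without each rat in turn it ranged from -0.15 to 0.57 for Cyp17a1 and from -0.19 to 0.71 for Cyp1a1 (both lowest without treated rat 4), from -0.75 to 0.59 for Cyp2b1, from -0.21 to 0.0909 for Ddx3y, from -0.18 to 1.54 for Gadd45b, from -2.67 to 2.64 for Ifit1 and from -0.88 to 0.13 for Prom1. Cyp2b1 was also at -0.0303 with the replicate block. Ifit1 was at -0.0644 without the 2 libraries of most low-quality alignments, a setting added after seeing the data. Another 4 genes that had not passed were called with DESeq2, namely Acacb (FDR = 0.0323), Fga (0.0365), Phgdh (0.00957) and Srd5a1 (0.0223), and Phgdh also without treated rat 3 (0.0449). With DESeq2 the fatty acid synthesis, ATF4 and serine, female-specific and hepatocyte lists had 1 call each instead of 0. The cause of these shifts was not tested. Depth limits the rarest cell cycle genes, which had few counts in control rats.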

Other observations

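Further genes fell at 1000 mkd with no overlap between the groups. Bche, the butyrylcholinesterase that the liver secretes into plasma, was at 22.3, 11.6, 18.4, 14.6 and 21.8 CPM in control rats and at 8.9, 7.51, 10.2, 7.63 and 8.34 CPM in treated rats (log2 fold change -1.06 ± 0.25, FDR = 0.0309). Ptgr1, a prostaglandin reductase, was at 52.1 to 116 CPM against 26.2 to 45.3 CPM (-1.16 ± 0.29, FDR = 0.0332). Ndst1, a sulfotransferase of heparan sulfate, was at 62.1 to 111 CPM against 30.7 to 55.3 CPM (-1.09 ± 0.24, FDR = 0.0195). Control rats 2 and 4 were the lowest control rats for Bche and Ptgr1. Nfia, a transcription factor named after its values were seen, was at 46.5 to 69.9 CPM against 26 to 42.8 CPM (-0.73 ± 0.19, FDR = 0.0425). These calls, too, were lost without at least 1 rat.

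Lists of the position of hepatocytes in the lobule held 0 calls, where 1.37% of all genes tested were called. Of 15 genes expressed around the central vein 7 were higher and 8 lower, with a median log2 fold change of -0.06, and of 16 periportal genes 13 were lower, with a median of -0.25. The 9 uptake transporters had a median of -0.17 and 0 calls, and the 12 bile acid genes a median of -0.01 and 0 calls. Of 36 subunits of respiratory complexes 35 were lower by small amounts (median -0.13) and 0 passed. Of 24 genes linked to preneoplastic liver 1 rose, Abcb1b, with a median of 0.32.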
